A study of Mus musculus with 27 samples.

Results

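The 9 genes described here, S100a8, S100a9, Ngp, Mpo, Elane, Prtn3, Ltf, Camp and Lyz2, encode proteins of neutrophil granules and cytosol, and were examined in RNA-seq libraries of cells that had been sorted as negative for CD45, the surface protein carried by nearly all white blood cells. They were taken by symbol from a table of 30154 entries, and all 9 were among the 18443 entries that reached 10 in 3 or more libraries. They were selected on their high values in bone marrow in these same data, so their difference between bone marrow and the other tissues is given as a description with no test, while differences between sorted populations of 1 tissue, and between periosteum and muscle, were tested.

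All mice carried Prx1-CreER, a tamoxifen-inducible Cre under the Prx1 (Prrx1) limb mesenchyme enhancer, the Ai14 reporter, which turns on tdTomato once Cre has acted, and Rag1 deficiency, which removes mature B and T cells. Animals of both sexes, 8 to 12 weeks of age, were given 2 doses of tamoxifen 48 h apart and cells were taken 3 days later, so tdTomato marks cells in which Prx1-CreER was active and their descendants. Cells of bone marrow, periosteum and muscle were sorted as Prx1+ CD45- and then divided by 2 surface proteins. P1 was negative for CD105 and positive for CD200, P2 lacked both, and P3 was positive for CD105 whatever its CD200, giving 9 groups of 3 libraries, 27 in all. All 3 tissues were dissected from hindlimbs of such mice, but the animal behind each library was not given. Libraries may therefore share animals and not be fully independent, and p-values measure the spread between these libraries.

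Neutrophils pack their proteins into granules in the order in which they mature. Myeloperoxidase (Mpo), neutrophil elastase (Elane) and proteinase 3 (Prtn3) are proteins of the azurophil granules and are transcribed in promyelocytes, the early stage. Lactoferrin (Ltf), the cathelicidin Camp and neutrophilic granule protein (Ngp) belong to the specific granules and are transcribed later, in myelocytes and metamyelocytes. S100a8 and S100a9 form calprotectin, the abundant calcium-binding complex of the neutrophil cytosol, and Lyz2 encodes the lysozyme of neutrophils, monocytes and macrophages. Bone marrow is where these cells are made, and circulating neutrophils have largely stopped transcribing the granule genes.

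Several of the genes lie close together. On GRCm38, Prtn3 (chr10:79874476-79883174) and Elane (chr10:79886247-79888215) are neighbours on the plus strand of chromosome 10, 3072 bases apart. S100a8 (chr3:90668978-90670035) and S100a9 (chr3:90692632-90695721) are 22596 bases apart on opposite strands of chromosome 3. Camp (chr9:109847379-109849617), Ngp (chr9:110419747-110423012) and Ltf (chr9:111019271-111042767) lie on chromosome 9, with 570129 bases between Camp and Ngp and 596258 between Ngp and Ltf. Mpo (chr11:87793581-87804413) is on chromosome 11, and Lyz2 (chr10:117277331-117282321) is on chromosome 10, far from Elane and Prtn3.

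The promoters of the 3 azurophil and the 3 specific granule genes are shown because the bone marrow comparison turns on these classes of granule gene. Each is the RefSeq sequence (GRCm38.p6) of the 250 bases before the transcription start, 5′ to 3′ on the strand of the gene. Capitals mark the letters GAGGAAG, a PU.1-type motif, and TTGCNNAA, a C/EBP-type motif, searched on both strands (a match on the other strand appears as its reverse complement). The RefSeq starts differ from the GENCODE gene ends given above, most of all for Prtn3, whose RefSeq start lies inside the GENCODE gene.
Mpo, chr11:87793534-87793783, plus strand: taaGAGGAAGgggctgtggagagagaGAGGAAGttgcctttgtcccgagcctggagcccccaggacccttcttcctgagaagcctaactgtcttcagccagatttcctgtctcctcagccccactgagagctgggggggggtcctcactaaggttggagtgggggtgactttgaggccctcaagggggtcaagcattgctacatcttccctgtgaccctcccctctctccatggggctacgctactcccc
Elane, chr10:79886062-79886311, plus strand: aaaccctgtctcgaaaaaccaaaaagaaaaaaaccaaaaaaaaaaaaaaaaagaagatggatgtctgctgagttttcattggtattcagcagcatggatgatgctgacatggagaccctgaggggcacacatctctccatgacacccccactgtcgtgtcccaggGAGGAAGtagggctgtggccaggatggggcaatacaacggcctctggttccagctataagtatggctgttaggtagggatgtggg
Prtn3, chr10:79879417-79879666, plus strand: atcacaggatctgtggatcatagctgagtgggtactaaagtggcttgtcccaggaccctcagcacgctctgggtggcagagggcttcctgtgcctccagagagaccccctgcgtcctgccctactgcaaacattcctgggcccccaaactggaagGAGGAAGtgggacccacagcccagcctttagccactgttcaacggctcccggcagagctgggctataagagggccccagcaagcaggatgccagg
Ngp, chr9:110419558-110419807, plus strand: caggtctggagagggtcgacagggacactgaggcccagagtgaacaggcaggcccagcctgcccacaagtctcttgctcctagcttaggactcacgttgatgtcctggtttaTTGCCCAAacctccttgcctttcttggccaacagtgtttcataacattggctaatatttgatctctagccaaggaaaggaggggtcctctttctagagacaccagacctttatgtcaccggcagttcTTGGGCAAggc
Ltf, chr9:111019042-111019291, plus strand: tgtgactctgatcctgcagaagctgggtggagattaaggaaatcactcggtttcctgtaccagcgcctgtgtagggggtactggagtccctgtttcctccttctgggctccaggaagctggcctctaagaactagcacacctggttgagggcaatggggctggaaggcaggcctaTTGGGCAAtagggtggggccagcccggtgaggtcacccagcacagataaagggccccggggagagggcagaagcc
Camp, chr9:109849457-109849706, minus strand: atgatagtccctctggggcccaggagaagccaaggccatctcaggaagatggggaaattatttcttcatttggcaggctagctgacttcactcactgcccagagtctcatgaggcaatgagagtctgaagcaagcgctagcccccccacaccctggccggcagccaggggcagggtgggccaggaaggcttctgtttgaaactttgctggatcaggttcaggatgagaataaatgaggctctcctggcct

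The PU.1-type letters occurred in the promoters of Mpo (2 matches), Elane and Prtn3, and in that of S100a8, which makes 4 of 9, beside 10.61% of 32817 promoters of the same length. The C/EBP-type letters occurred in those of Ngp (2 matches) and Ltf, and in that of S100a9, which makes 3 of 9, beside 9.57% of all promoters. Camp and Lyz2 held neither, and none of the 9 held both, so the marked matches of the motifs did not overlap. These matches are a description of letters in this window and were not tested as binding sites.

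Values are normalized counts, which the authors derived from read counts so that libraries can be compared. Their totals were between about 8639660 and 26232100 per library, and they no longer give the number of reads, so counting error is not known and a 0 means only that the gene was listed at 0. In bone marrow P1 the 9 mesenchymal markers (Prrx1, Col1a1, Col1a2 and others) were high, with Prrx1 at 2413, 1674 and 1819 in replicates 1, 2 and 3. In bone marrow P2 Prrx1 was at 90.8, 69.0 and 170.3, all 9 mesenchymal markers were lower than in P1, and globins made up 44.2% to 47.3% of the total, against 0.527% to 2.89% in P1 and 2.98% to 4.28% in P3. Globins were also 24.0% to 38.5% of the total in periosteum P2. There Prrx1 was at 2377, 64.0 and 302 in replicates 1, 2 and 3, against 4578, 1516 and 2544 in periosteum P1. The value of periosteum P2 replicate 2 was the lowest of all libraries. In periosteum P2 against P1, all 9 mesenchymal markers had an unadjusted p under 0.05 by limma. The bone marrow P2 values therefore come from libraries low in the mesenchymal markers of their label and rich in erythroid transcripts.

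All 9 genes were above 0 in 8 of the 9 bone marrow libraries, and Elane was listed at 0 in the other, P1 replicate 1. Together the 9 genes made up 0.133% to 0.451% of the total in P1, 0.223% to 0.993% in P2 and 0.124% to 0.618% in P3. In periosteum they reached 0.454% in 1 library, replicate 2 of P2, and at most 0.0128% in the other 8. In muscle they made up at most 0.00729%. In such bulk libraries fewer cells of a type and less RNA per cell cannot be told apart. Values are given below as replicates 1, 2 and 3 of each group.

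S100a8 was at 5139.6, 8912 and 17709.5 in bone marrow P1, at 3916, 51399.6 and 35971 in P2 and at 9462, 9709 and 3029 in P3. S100a9 was at 4894, 7894 and 13894 in P1, at 4148, 36718 and 30392 in P2 and at 8604, 7212 and 3021 in P3. The 2 subunits of calprotectin were high in every bone marrow library and varied together, with a ratio of S100a8 to S100a9 between 0.944 and 1.40. The ratio is not corrected for transcript length and serves only to compare libraries. In P2, replicates 2 and 3 were the highest of all bone marrow libraries and replicate 1 lay within the range of P3, so the populations overlapped.

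Ngp was at 5637, 13395 and 22328 in bone marrow P1, at 443, 38325 and 28151 in P2 and at 5949, 6407 and 2435 in P3. Ltf was at 3327, 5860.1 and 4917 in P1, at 274, 8613 and 6687 in P2 and at 1741, 2962 and 1269.7 in P3. Camp was at 2308, 3351 and 6688 in P1, at 81.9, 15895 and 15528 in P2 and at 1827, 1745 and 487 in P3. For all 3 specific granule genes the lowest bone marrow library was P2 replicate 1 and the highest was P2 replicate 2. P1 lay between these extremes, and its 3 libraries were above those of P3 for Ltf and Camp.

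The azurophil genes had another pattern. Mpo was at 16.6, 575 and 44.9 in bone marrow P1, at 18312, 46237 and 3709 in P2 and at 6512, 16569 and 2.03 in P3. Elane was at 0, 42.9 and 113 in P1, at 9855, 38912 and 6581 in P2 and at 2721, 9864 and 3.75 in P3. Prtn3 was at 21.8, 91.8 and 53.9 in P1, at 1699, 8551 and 918 in P2 and at 818, 1629 and 21.5 in P3. Every P2 library was above every P1 library for these 3 serine protease and peroxidase genes, and P3 was split, with replicates 1 and 2 high and replicate 3 in or below the P1 range.

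Lyz2 was at 2445, 7077 and 9862 in bone marrow P1, at 2829, 15908 and 8916 in P2 and at 5234, 4454 and 2552 in P3, with overlap between the 3 populations. Its near-identical neighbour Lyz1, with which reads could be shared, was between 0 and 19.8 in all 27 libraries.

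**Figure D1:**
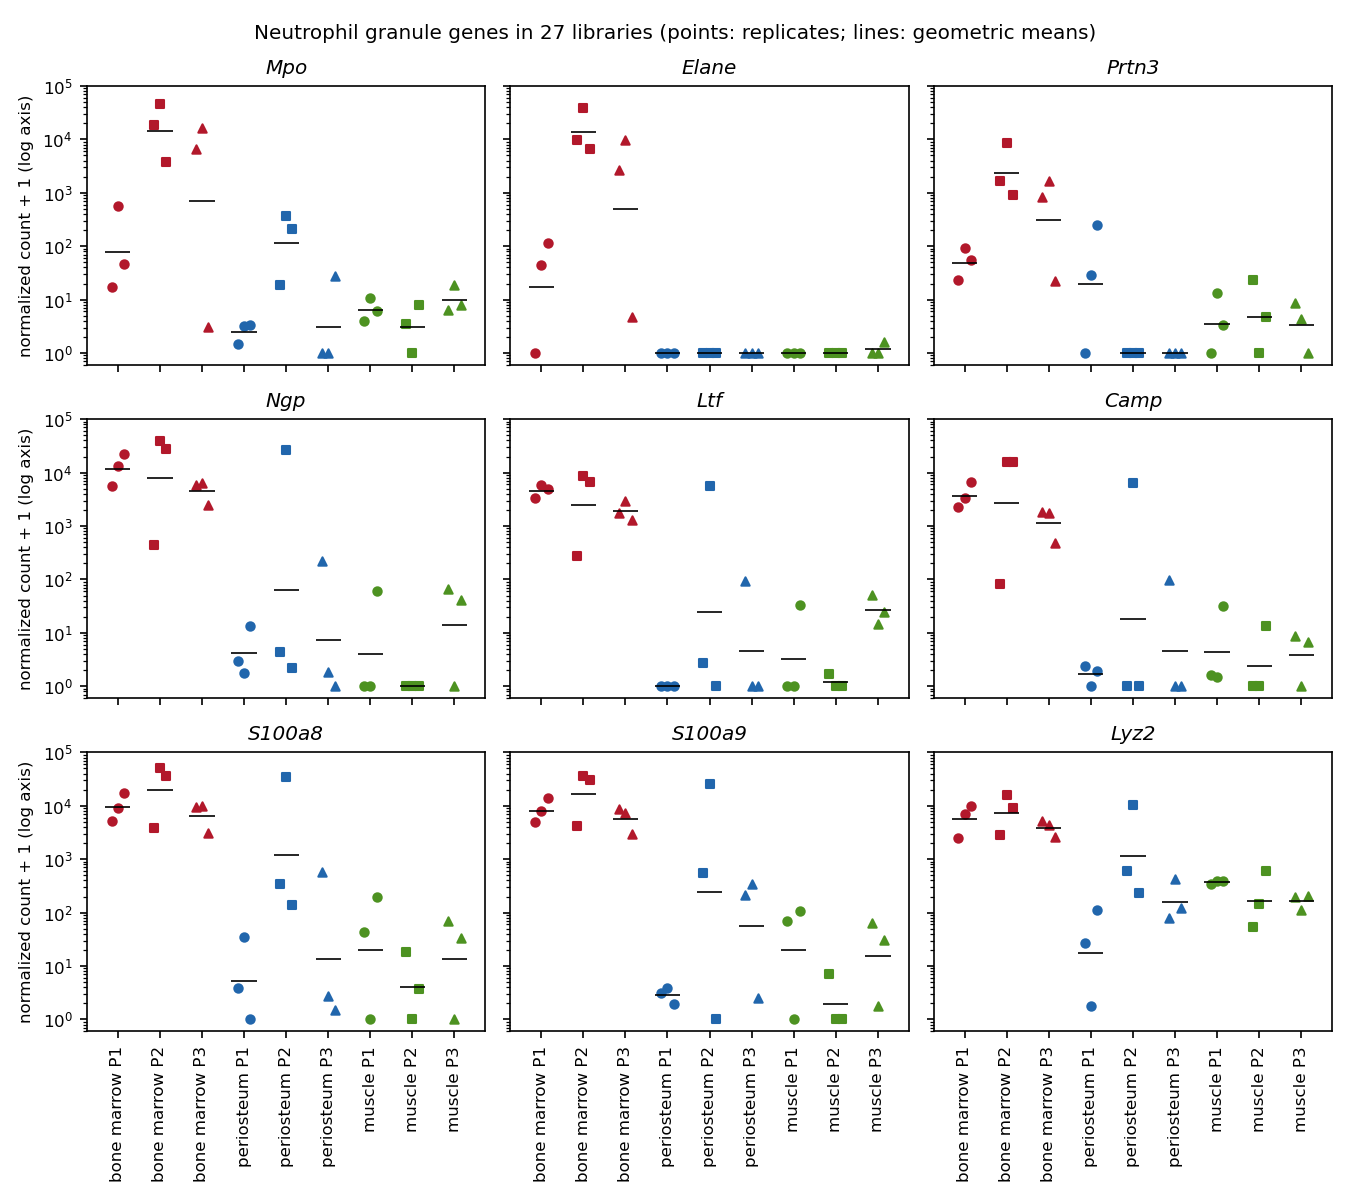
Normalized count plus 1 (log axis) of each of the 9 genes in the 9 groups; points are the 3 replicates of a group and lines their geometric means, with bone marrow in red, periosteum in blue and muscle in green. Mpo, Elane and Prtn3 were lower in every P1 than in every P2 library of bone marrow, and periosteum P2 replicate 2 stood at bone marrow levels for S100a8, S100a9, Ngp, Ltf, Camp and Lyz2.

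Levels of different genes were compared per kilobase of exon. By the mean normalized count per kilobase, S100a9 and S100a8 ranked first and second in all 3 bone marrow populations, and within each of these populations their libraries overlapped. Elane ranked 8th of 9 in P1 and 3rd in P2 and in P3, while Mpo ranked 7th, 7th and 6th. Ltf, a long transcript, ranked 6th in P1, 9th in P2 and 8th in P3.

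The test of P2 against P1 in bone marrow addressed whether the CD200-negative and CD200-positive populations differed in these genes. Mpo, Elane and Prtn3 were higher in P2, and the other 6 genes did not pass the test. The log2 fold change, on the scale of log2(normalized count + 1), was 7.56 for Mpo (SE 2.14, adjusted p = 0.00854), 9.63 for Elane (SE 1.80, adjusted p = 0.000269) and 5.60 for Prtn3 (SE 1.69, adjusted p = 0.0129), by limma with Benjamini-Hochberg adjustment over all 18443 genes and a threshold of 0.05 and an absolute log2 fold change above 1.5. The 3 of 9 called higher stand beside 23.7% of all genes called higher and 10.4% called lower in the same comparison, and the median was 1.04 over the 9 genes and 0.61 over all genes. The other 6 genes had log2 fold changes between -0.87 and 1.05 with standard errors of 1.24 to 2.62, and those errors leave room for differences of several log2 units in either direction. Prtn3 lost its call without P1 replicate 1 (5.06) or without P2 replicate 2 (4.68), while Mpo and Elane kept theirs whichever library was left out.

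The other granule genes were described by lists. The azurophil list held 6 further genes, not all of them for granule contents, and 3 were called higher in P2, beside 23.7% of all genes. They were Ctsg, the protease cathepsin G (log2 fold change 8.14, adjusted p = 0.00276 by limma), Srgn, the granule proteoglycan serglycin (3.04, adjusted p = 0.0151), and Ms4a3, a marker of granulocyte and monocyte progenitors (6.80, adjusted p = 0.000934), the last chosen for naming after its values were seen. Ctsg was at 0, 61.8 and 1.7 in P1 and at 3134, 7158 and 167 in P2, again with replicate 3 the lowest of P2. Ctsg also was at 289, 2015 and 0 in P3, the same split of replicates as Mpo, Elane and Prtn3. Serpinb1a, a serpin that inhibits elastase and its relatives, was at 357, 427 and 539 in P1 and 666, 2118 and 1533 in P2 and did not pass the test (1.57, adjusted p = 0.541 by limma). Ctsc, of the same list and chosen after its values were seen, went the other way. It was at 667, 1076 and 1023 in P1 and at 388, 189 and 104 in P2. Srgn was not limited to bone marrow, and was at 3627, 1947 and 2608 in muscle P3 and at 2035, 1493 and 1383 in periosteum P3.

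Of 8 further specific granule genes that were tested, 0 were called in P2 against P1 by limma, beside 34.0% of all genes called in either direction. Of the 8, 0 had an unadjusted p under 0.05, and their median log2 fold change was -0.14. Haptoglobin (Hp) was at 11530.3, 3962 and 8229 in P1 and at 864, 3947 and 1819.7 in P2. Hp was not limited to bone marrow, and was at 684, 172 and 1848 in periosteum P1 and at 1033, 4411 and 2199 in periosteum P3. Chil3, a chitinase-like protein of mouse myeloid cells, was at 1244, 2518 and 5648 in P1 and 117, 12128 and 4646 in P2. Lipocalin 2 (Lcn2) was at 1107, 2997 and 3637 in P1 and 479, 7433 and 4924 in P2. Chil3 and Lcn2, like Ngp, Ltf and Camp, were lowest in P2 replicate 1 among the P2 libraries.

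**Figure D2:**
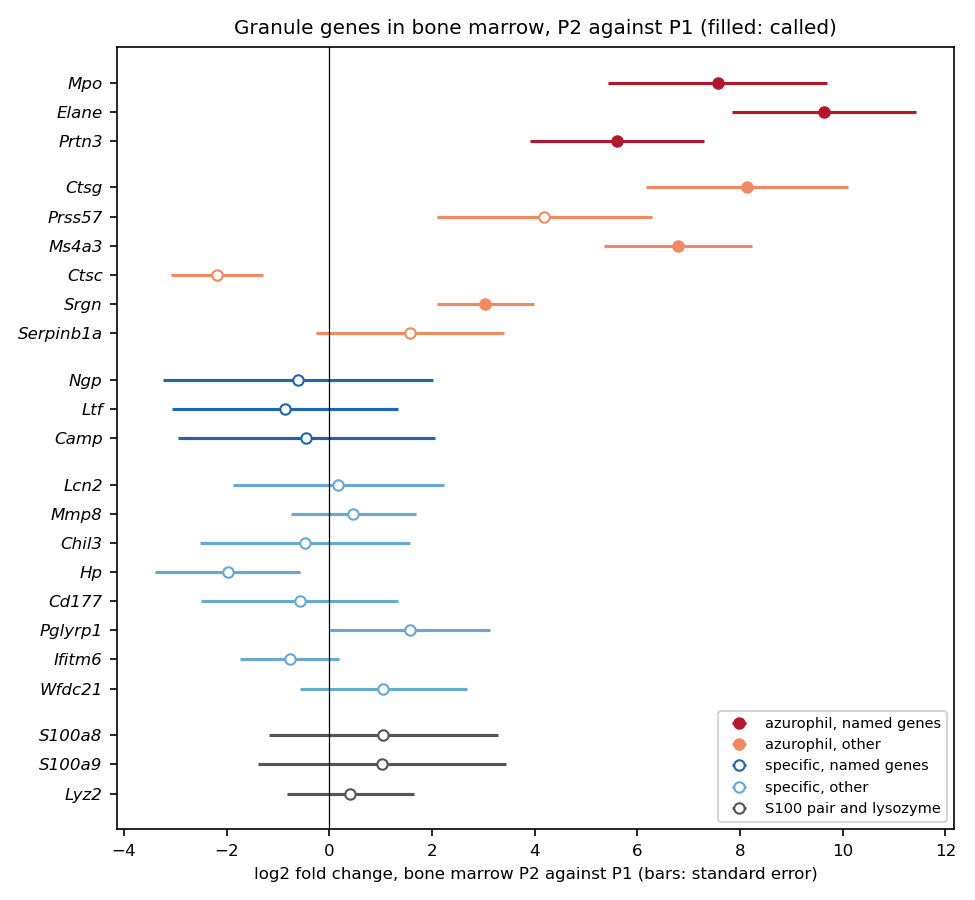
Log2 fold change of bone marrow P2 against P1 (horizontal axis, log2 of normalized count plus 1) with standard errors, for the 9 genes and for the other genes of the azurophil and specific granule lists; filled points passed the test. Mpo, Elane, Prtn3, Ctsg, Ms4a3 and Srgn passed, and no specific granule gene did.

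Among the genes of later neutrophil stages, 4 of 12 were called higher in P2, beside 23.7% of all genes. They were Retnlg, a resistin-like secreted protein (3.57, adjusted p = 0.0498 by limma), and 3 chosen for naming after their values were seen, the chemokine receptor Cxcr2 (3.04, adjusted p = 0.000470), the G-CSF receptor Csf3r (3.19, adjusted p = 0.0279) and the cytokine Il1b (4.95, adjusted p = 0.0286). Of 6 NADPH oxidase subunits, such as Cyba, Rac2 and Ncf1, 0 were called by limma and 2 had an unadjusted p under 0.05. Of 12 factors and receptors of granulocyte development, 4 were called higher, beside the same 23.7%. They were Cd34, the progenitor surface protein (3.30, adjusted p = 9.94e-05 by limma), and, chosen after their values were seen, the transcription factors Gfi1 (5.28, adjusted p = 0.00118) and Myb (5.01, adjusted p = 0.0129) and the receptor Flt3 (3.81, adjusted p = 0.0210). Nothing is read from these counts of 4 of 12 beside that share. Cd34 was at 533, 285 and 717 in bone marrow P2, but between 2588 and 15386 in periosteum and between 7408 and 20340 in muscle. Its level therefore did not follow the granule genes across tissues.

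Of the lists of other blood cells in P2 against P1, 10 of 10 erythroid genes, 2 of 11 pan-leukocyte genes, 2 of 10 monocyte and macrophage genes, 3 of 8 B lineage genes, 4 of 7 T and NK lineage genes and 3 of 6 mast cell, basophil and eosinophil genes were called higher, and 35 of 102 over all blood lists together (23 without P2 replicate 3). Against the 23.7% of all genes called higher, the shares of the pan-leukocyte and monocyte lists were below it. Of 6 megakaryocyte genes, 0 were called by limma and 0 had an unadjusted p under 0.05. Of the sorting markers, Cd200 was lower in P2 (-7.21, adjusted p = 6.29e-06 by limma) and Eng, which encodes CD105, was at 0.48 (adjusted p = 0.782). Of 8 other S100 genes, 0 were higher and 5 were lower in P2, beside 10.4% of all genes called lower. Among the 5 was S100a10 (-2.16, adjusted p = 0.000348 by limma). The part of these other cells in the granule gene values was not tested.

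**Figure D3:**
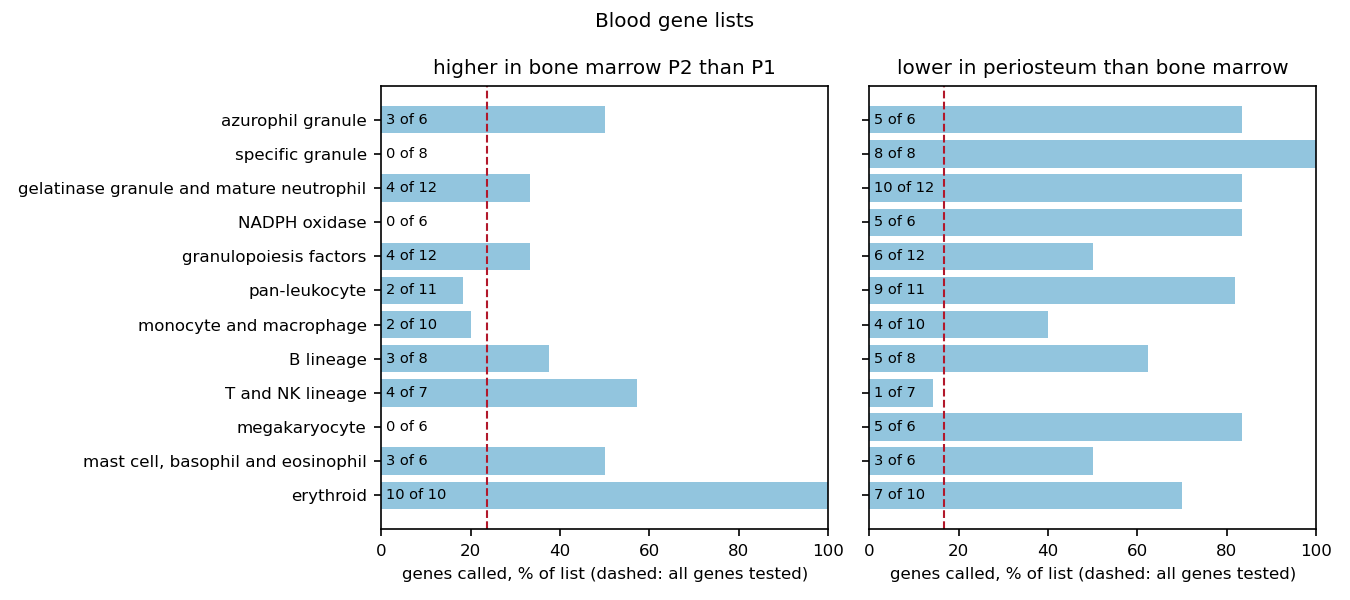
Share of each blood gene list called higher in bone marrow P2 than in P1 (left) and lower in periosteum against bone marrow (right), in % of the genes tested, with the count in each bar; the dashed lines are the shares over all genes, 23.7% and 16.8%. The erythroid list was called in full on the left and the specific granule list in full on the right. Genes on the right include some kept for testing by their bone marrow values alone.

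Ptprc, which encodes CD45, was listed above 0 in every bone marrow library. It was at 61.8, 252 and 204 in P1, at 312, 690.2 and 829 in P2 and at 308, 66.5 and 321 in P3. Every P2 library was above the P1 libraries, and P3 overlapped both, but the difference between P2 and P1 did not pass the test (log2 fold change 1.93, SE 1.09, adjusted p = 0.174 by limma). Transcript levels do not give the surface protein on which the cells were sorted, and the source of Ptprc and granule transcripts in cells sorted as CD45- was not tested.

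P3, the CD105-positive population, was compared with both others. In P3 against P1, 0 of 9 genes were called by limma and 1 (Elane) had an unadjusted p under 0.05, beside 6.61% of all genes called in either direction. Elane had a log2 fold change of 4.88 (SE 1.80, adjusted p = 0.114 by limma), and Ltf and Camp, at -1.29 (SE 2.20) and -1.69 (SE 2.50), were the only ones of the 9 with no overlap between the libraries. Leaving out P3 replicate 3 gave 2 calls, and rescaling every library to 1 total gave 1.

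In P2 against P3, 0 of 9 genes were called by limma and 1 (Elane) had an unadjusted p under 0.05, beside 20.0% of all genes called. All 9 log2 fold changes were positive, from 0.42 for Ltf to 4.76 for Elane (SE 1.80, adjusted p = 0.0613 by limma), where the median of all genes was 0.48. With each library rescaled to 1 total, which moved that median to -0.53, 6 of the 9 were positive. Leaving out P3 replicate 2 gave 2 calls and leaving out P3 replicate 1 gave 1.

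The balance of the azurophil and specific granule genes separated individual libraries. As a share of the summed normalized counts of all 6, Mpo, Elane and Prtn3 made up 0.340%, 3.04% and 0.621% in replicates 1, 2 and 3 of bone marrow P1. In P2 they made up 97.4%, 59.9% and 18.2%, and in P3 51.4%, 71.6% and 0.647%. The share was low in all 3 P1 libraries, ranged widely in P2 with replicate 1 the highest, and in P3 replicate 3 stood with P1. These sums are not corrected for transcript length, so the shares compare libraries and not genes.

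Over the 9 bone marrow libraries, Mpo, Elane and Prtn3 varied together, with Pearson r of 0.937 to 0.966 and Spearman rank correlations of 0.933 to 0.983 on the log2 scale. Ngp, Ltf and Camp did so too, with r of 0.963 to 0.990 and rank correlations of 0.933 to 0.967. Between the azurophil and specific genes, the 9 pairs had r of -0.014 to 0.137 and rank correlations of 0.10 to 0.40. With the group means subtracted, the ranges of r were 0.899 to 0.962 within the azurophil genes, 0.974 to 0.991 within the specific ones and 0.184 to 0.367 between them. These are descriptions over 9 libraries that share 3 sorted populations and processing and may share animals. S100a8, S100a9 and Lyz2 were closer to the specific genes (r of 0.73 to 0.871) than to the azurophil ones (0.429 to 0.57).

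**Figure D4:**
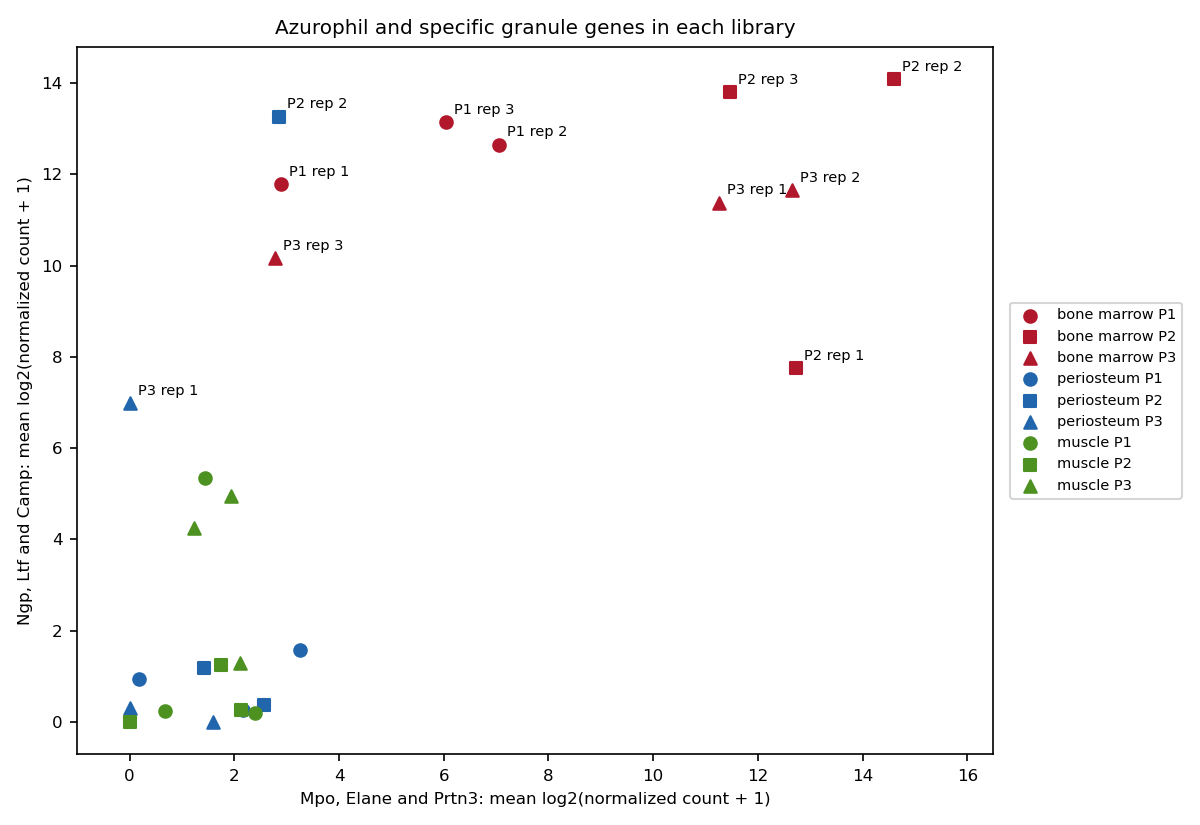
Mean log2(normalized count + 1) of Ngp, Ltf and Camp (vertical) against that of Mpo, Elane and Prtn3 (horizontal) in each of 27 libraries, with tissue by colour and population by symbol. The bone marrow P1 libraries were higher in the specific than in the azurophil genes. Bone marrow P2 replicate 1 was the reverse, as were P2 replicate 2 and P3 replicate 2 to a lesser degree. Periosteum P2 replicate 2 lay near the bone marrow P1 libraries.

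Outside bone marrow, the mean log2 difference from bone marrow was between -9.22 and -5.21 in periosteum and between -10.94 and -4.65 in muscle over the 9 genes, given here with no test. The lowest bone marrow library was above every muscle library for 6 of the 9 genes, S100a8, S100a9, Ngp, Ltf, Camp and Lyz2, beside 1.47% of all genes. It was above every periosteum library for 0 of the 9, beside 0.445% of all genes. Without periosteum P2 replicate 2, it was above every other periosteum library for 5 of the 9, beside 0.699% of all genes. Nothing is read from these counts, because the 9 genes were selected on their bone marrow levels.

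Other blood genes were also called lower in both tissues, and these counts are given as a description. In periosteum, 68 of 102 genes of the blood lists were called lower than in bone marrow and 1 higher, beside 16.8% of all genes called lower. They included 8 of 8 further specific granule genes, 5 of 6 genes of the azurophil list, 10 of 12 genes of later neutrophil stages and 5 of 6 NADPH oxidase genes. In muscle, 67 of 102 were called lower and 2 higher, beside 10.8% of all genes, and the same 4 lists gave 8 of 8, 2 of 6, 12 of 12 and 5 of 6. The members were chosen for their bone marrow levels and these lists with that known, so the lists are not independent evidence of the direction. Some list genes were also kept for testing by their bone marrow values alone. An example, chosen after its values were seen, is Ifitm6, listed at 0 in every periosteum library. For such genes a lower call followed largely from the filter, and the shares of all genes are not matched for this.

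Periosteum P1 had low values throughout. S100a8 was at 2.88, 34.0 and 0, S100a9 at 2.14, 2.96 and 0.943 and Lyz2 at 25.6, 0.749 and 109.9. Prtn3 was an exception, at 0, 27.6 and 253, and it was listed at 0 in all periosteum P2 and P3 libraries. Elane was listed at 0 in all 9 periosteum libraries.

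Periosteum P2 was divided between its libraries. S100a8 was at 349, 34147 and 139, S100a9 at 549.8, 25486 and 0 and Lyz2 at 613, 10364 and 233. Ngp was at 3.34, 27041 and 1.21, Ltf at 1.68, 5559 and 0 and Camp at 0, 6271 and 0. Replicate 2 had values in the bone marrow range for these 6 genes, while replicates 1 and 3 were at or near 0 for Ngp, Ltf and Camp.

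Of the azurophil genes, Mpo was at 18.2, 375 and 211 and Elane and Prtn3 were listed at 0 in all 3 libraries. Mpo, Elane and Prtn3 made up 0.955% of the summed counts of the 6 granule genes in replicate 2, within the range of bone marrow P1. In the same replicate the specific granule genes Lcn2 (6984), Chil3 (4863) and, chosen after its values were seen, Cd177 (3160) were high. Of the 9 genes of that list, 6 were highest in replicate 2, 1 was highest in replicate 1, and 2 were listed at 0 in all 3 libraries.

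The summed pan-leukocyte list was 15393 in periosteum P2 replicate 2, against 1585 and 1941 in replicates 1 and 3. Lcp1, an actin-bundling protein of blood cells, was at 263, 5874 and 729. Ptprc was at 18.5, 32.0 and 184. Of the 11 genes of that list, 8 were highest in replicate 2, 1 (Ptprc) was highest in replicate 3, and 2 were listed at 0 in all 3 libraries. The 8 include Itgb2, chosen after its values were seen, which was near the floor at 0, 3.42 and 0. Globins were 38.5% of the total in that library and 24.0% and 32.1% in the others, and the part of blood cells in these values was not tested.

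In periosteum 5 of the 9 genes, S100a8, S100a9, Ngp, Mpo and Lyz2, reached 10 in at least 3 libraries. The other 4 were kept for testing by their bone marrow values, so the counts below are given over the 5, beside the share of all genes that reached 10 in at least 3 periosteum libraries. Of the 5, only Lyz2 reached that limit without the P2 libraries. The P2 calls of S100a8 in periosteum are therefore partly set by the limit and are given as a description. In the test of periosteum P2 against P1, S100a8 (log2 fold change 7.85, SE 2.23, adjusted p = 0.0155 by limma) and Lyz2 (6.05, SE 1.24, adjusted p = 0.00126) were higher in P2, 2 of 5 genes beside 10.4% of such genes called higher, and the libraries of the groups did not overlap for either. Without P2 replicate 2 the S100a8 difference was 5.43 and lost its call, and Lyz2 kept its own. Without P1 replicate 3 it was 6.67 and also lost its call, and with the periosteum groups fitted alone neither gene was called. Leaving out P2 replicate 3 gave 4 calls over all 9 genes.

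In P2 against P3 of periosteum, S100a8 was the 1 gene called (log2 fold change 6.48, SE 2.23, adjusted p = 0.0458 by limma), 1 of 5 beside 9.11% of such genes called higher, and the libraries overlapped. That call was lost without P2 replicate 2 (4.06), P3 replicate 2 (5.33) or P3 replicate 3 (4.91), and under 7 other settings, and leaving out P2 replicate 3 gave 3 calls over all 9. In P3 against P1, 0 of 5 genes were called by limma and 1 (Lyz2) had an unadjusted p under 0.05, beside 5.26% of such genes called, and leaving out P1 replicate 1 or P1 replicate 3 gave 1 call each over all 9. Periosteum P3 had S100a9 at 216, 337 and 1.5 and Lyz2 at 77.6, 419 and 119, with Ngp, Ltf and Camp above 1 in replicate 1 only.

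In muscle Lyz2 ranked first of the 9 genes in P1, P2 and P3 by mean normalized count per kilobase. It was at 338, 394 and 383 in P1, at 53.0, 141 and 590.4 in P2 and at 199, 111 and 199.9 in P3, above 0 in all 9 libraries. S100a8 was at 41.7, 0 and 195 in P1, at 17.2, 0 and 2.78 in P2 and at 69.8, 0 and 32.3 in P3, so 1 library of each population was at 0. Mpo was between 0 and 18.0, and Elane was listed at 0 in 8 of 9 muscle libraries and at 0.639 in the other.

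In muscle 5 of the 9 genes, S100a8, S100a9, Ngp, Ltf and Lyz2, reached 10 in at least 3 libraries, and Mpo, Elane, Prtn3 and Camp were too low for the tests to bear on them. Of the 5, limma called 0 and 0 had an unadjusted p under 0.05 in P2 against P1 (10.1% of genes that reached 10 in at least 3 muscle libraries called), in P3 against P1 (0.574%) or in P2 against P3 (13.5%). The SE of their log2 fold changes was 1.24 for Lyz2 and up to 2.62 for Ngp. Between periosteum and muscle, 6 of the 9 genes reached 10 in at least 3 libraries of either tissue. Of these, 0 were called and 0 had an unadjusted p under 0.05 by limma, beside 23.9% of such genes called, with log2 fold changes from -0.57 (SE 0.716) for Lyz2 to 2.07 (SE 1.28) for S100a8. These tests do not show that the levels were alike. Leaving out periosteum P2 replicate 3 gave 1 call in that comparison.

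Whether the differences between populations depended on the tissue was tested between periosteum and muscle, for the 4 genes that reached 10 in at least 3 libraries of both, S100a8, S100a9, Ngp and Lyz2. Of 12 interaction terms, 2 were called and 5 had an unadjusted p under 0.05. For P2 against P1, S100a8 (difference of the log2 fold changes 10.16, SE 3.15, adjusted p = 0.0361 by limma) and Lyz2 (7.21, SE 1.75, adjusted p = 0.00855) were higher in periosteum, beside 6.10% of all genes that reached 10 in both. Without periosteum P2 replicate 2 the S100a8 term was 7.74 and lost its call (adjusted p = 0.0972 by limma), and Lyz2 kept its own. In periosteum S100a8 reached 10 in at least 3 libraries only with P2 counted, so its term is given as a description. Terms against bone marrow were fitted but are not given, since several of the 9 genes were near 0 elsewhere, where such a term mostly repeats the bone marrow fold change.

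The genes whose log2 values most resembled the mean of the 9 genes over the 27 libraries were Wfdc21 (r = 0.965), Mcemp1 (0.956), Fcnb (0.941), Chil3 (0.936), Itgb2l (0.935), Cebpe (0.933), Clec5a (0.929), Gm9531 (0.926), Trem3 (0.915) and Cd52 (0.911). Fcnb encodes a ficolin of myeloid cells and Cebpe a transcription factor of late granulocyte development. With the group means subtracted, Wfdc21 (0.873), Chil3 (0.829), Fcnb (0.818) and Mcemp1 (0.784) were again among the closest 10. The rest of that 10 were not on the first list. They were the globin gene Hba-x (0.822), Rufy1 (0.817), Lta4h (0.779), Mtf1 (0.773), Vill (0.767) and Nlrp1c-ps (0.755). Cebpe was at 27.3, 35.7 and 85.9 in bone marrow P1, at 75.0, 463 and 221 in P2 and at 64.5, 80.6 and 9.4 in P3. These values of r describe 27 libraries that share tissues and processing.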

How the data were processed

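Full-length cDNA was made with a SMART-Seq v4 kit for small amounts of RNA from sorted cells, libraries were made with Nextera XT and sequenced, and the authors trimmed reads with Trim Galore, aligned them with STAR and normalized with DESeq2. The genome build, the annotation and the counting tool are not given in the sources used here. The deposited table holds 1 signal value per gene and library, a normalized count. Read counts could not be recovered from it (19.5% to 89.0% of low values per library lay within 0.05 of a whole multiple of the commonest low value, where 95% was required), so the depth in reads and the counting error are unknown and no count test was run.

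Groups follow the sorted phenotypes in the labels. Entries with at least 10 in at least 3 libraries (18443 of 30154) were tested as log2(normalized count + 1) with limma 3.58.1 in R 4.3.3 (1 mean per group over all 9 groups, moderated variance with a trend, Benjamini-Hochberg adjustment over all genes kept). Genes with an adjusted p under 0.05 whose log2 fold change exceeded 1.5 in size were called. Outside bone marrow, calls were counted over genes reaching 10 in at least 3 libraries of the tissue, a limit set after the data were seen. The code was tested on simulated data. Tables were handled in Python 3.11.15 with pandas 2.3.3 and plotted with matplotlib 3.10.9.

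The 9 genes and the gene lists were chosen with earlier results of these data known. Named genes are the 9, the sorting and mesenchymal markers, the 3 of each other list with the highest mean over 27 libraries, and the 10 most similar genes by each of 2 measures of r. Others are said to be chosen after their values were seen. Pairing of the samples by replicate number was not seen in the values: over 36 pairs of groups the mean correlation of same-numbered deviations was 0.000243 and in 0 of them did all 3 exceed 0.1. With 3 libraries per group this cannot show that same-numbered libraries came from different animals. Positions and exon lengths are from GENCODE M21 (GRCm38), promoters from RefSeq (GRCm38.p6), and motif positions were found by exact match of letters. Alternatives were other pseudocounts (0.1 and 5), filters and scalings, a replicate block, the tissues fitted alone, and each library left out in turn.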

Additional observations from a re-analysis of the deposited data

Results flagged for a closer look

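The P2 against P1 difference of S100a8 and Lyz2 itself differed between periosteum and muscle by an interaction term in limma with Benjamini-Hochberg adjustment. S100a8 differed by 10.2 and Lyz2 by 7.21 on the log2 scale, both higher in periosteum. S100a8 reached 10 in at least 3 periosteum libraries only with P2 counted, so its term is given as a description.

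Each was recomputed under 20 alternatives chosen after seeing the data, other pseudocounts, filters and scalings, the replicate block and each library left out. Lyz2 kept its call in all 20, with values of 5.56 to 8.55. S100a8 lost its call in 10, with values of 7.74 to 12.3, the lowest without periosteum P2 replicate 2. Neither difference changed its direction under these alternatives.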

How the results depend on the processing

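Counts of calls here are over all 9 genes. The 3 calls in bone marrow P2 against P1 numbered 2 or 3 under every alternative, Prtn3 being the gene lost with a pseudocount of 0.1 (5.63). The count for bone marrow P2 against P3 was 0, and 1 with a pseudocount of 5 (0 to 2 with 1 library left out). For bone marrow P3 against P1 it was 0, and 1 under both rescalings to a total (0 to 2 with 1 library left out). For periosteum P2 against P1 it was 2, and 0 with the tissue fitted alone (1 to 4 with 1 library left out). For periosteum P2 against P3 it was 1, and 0 with a pseudocount of 0.1, no filter, both rescalings, quantile normalization, the replicate block and the tissue fitted alone (0 to 3 with 1 library left out). For periosteum P3 against P1 it was 0 (0 to 1 with 1 library left out). Periosteum against muscle gave 0, and 1 with quantile normalization or without periosteum P2 replicate 3 (0 to 1 with 1 library left out). Muscle P2 against P3 gave 0, and 1 with the tissue fitted alone.

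Of the blood lists, 35 genes were called in bone marrow P2 against P1, 21 at a mean of at least 50, where fewer genes were tested, and 23 to 31 with 1 library left out, the lowest without P2 replicate 3. In P2 against P3, 15 were called, 8 at a mean of at least 50, 8 rescaled to 1 total and 25 with the tissue alone (10 to 20 with 1 library left out). In P3 against P1, 7 were called, 15 under both rescalings and 13 with quantile normalization or the tissue alone (3 to 8 with 1 library left out, 3 without P1 replicate 1). The replicate block changed no other count of calls by over 1.5 times. The causes were not tested, and no called value changed direction.

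Scaling moved the median of all genes and the split of calls. In bone marrow P2 against P1 the median log2 was 0.61 as deposited, 0.49 rescaled to 1 total, 1.25 without globins and 0.18 by quantiles, with 69.5%, 65.7%, 81.1% and 52.2% of calls higher. In P2 against P3 these shares were 73.1%, 34.7%, 65.2% and 49.2%, and in P3 against P1 47.6%, 83.4%, 84.8% and 51.6%. In periosteum P2 against P1 they were 46.9%, 33.7%, 50.4% and 49.8%, and in P2 against P3 45.5%, 21.2%, 36.9% and 47.8%. For periosteum against bone marrow they were 19.3%, 25.1%, 20.2% and 50.1%.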
